A study of Mus musculus with 81 samples.

Results

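Fat tissue is represented here by 10 genes, followed through mouse thymus and thymic lymphoma, namely Ucp1, Cidea, Cyp2e1, Adipoq, Fabp4, Plin1, Lep, Cfd, Pparg and Lpl. These 10 genes, of 51826 in the table, were chosen by symbol because their levels differed widely between normal thymus and lymphoma in these same samples, so that difference is described below and not tested. The libraries covered bulk RNA from 40 mice on a C57BL/6 x 129S4Sv/Jae background, and all groups, controls included, shared Plk4(Col1a1), rtTA(Rosa) and centrin-GFP(Rosa), which together let doxycycline raise Plk4, the kinase that starts centriole duplication. Normal thymus came from 8 p53+/+ mice without treatment and from 1 p53+/- mouse, also untreated. Thymic lymphomas came from 10 p53-/- mice without treatment (23 libraries), 9 p53-/- mice given doxycycline (18 libraries) and 12 p53+/- mice given doxycycline (31 libraries), the drug being given over 2 weeks starting at day 30 of life. In 13 of the 31 lymphomas several regions had been sampled, and these were summed so that each mouse counted once. Each mouse is a separate animal, and 3 mice had a labelled sex that expression did not match. Age at sampling and how much tissue around the thymus was taken along are not given in the sources used here.

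The thymus lies in the chest beside fat that is brown or mixed in character, and fat also enters the gland itself with age. Brown adipocytes burn fuel to make heat: UCP1 lets protons back into the mitochondrial matrix without ATP being made, and CIDEA, a protein of lipid droplets, is abundant in brown and beige cells. White adipocytes store triglyceride in 1 large droplet and release hormones, among them leptin (Lep), which signals energy stores to the brain. Both kinds of adipocyte use PPARG as the master transcription factor of fat cell identity, coat their droplets with perilipin 1 (Plin1), take up fatty acids freed by lipoprotein lipase (Lpl), carry them on FABP4 and secrete adiponectin (Adipoq) and adipsin (Cfd, complement factor D). CYP2E1 oxidises small molecules and is best known from liver, with expression in fat as well. Fabp4 and Lpl are not restricted to adipocytes: FABP4 is also found in capillary endothelium and macrophages, and LPL in macrophages.

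RefSeq promoter windows (GRCm38, 250 bases before to 50 bases after the start of transcription) were found for 7 of the 10 genes: Ucp1, Cyp2e1, Adipoq, Plin1, Lep, Cfd and Pparg. Of these, 4 are shown because the results turn on them: Ucp1 stands for brown fat, Adipoq is the gene to which the others are compared, Plin1 followed it most closely of the 10 in the lymphomas, and Lep stands for white fat. Capitals mark matches on either strand to 5 motifs, namely TATAAA (the TATA box), AGGTCA (the hexamer bound by nuclear receptors), CCAAT (the CCAAT box), TTGCNNAA (a C/EBP-type site) and TGACG (the core of a cAMP response element).
Ucp1, chr8:83290098-83290397, plus strand: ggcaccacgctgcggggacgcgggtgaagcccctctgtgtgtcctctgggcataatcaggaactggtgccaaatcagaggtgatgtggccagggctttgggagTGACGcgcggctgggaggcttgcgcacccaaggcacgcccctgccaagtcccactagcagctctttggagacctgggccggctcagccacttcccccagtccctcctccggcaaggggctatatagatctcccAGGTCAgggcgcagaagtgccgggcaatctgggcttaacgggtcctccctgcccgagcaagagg
Adipoq, chr16:23146286-23146585, plus strand: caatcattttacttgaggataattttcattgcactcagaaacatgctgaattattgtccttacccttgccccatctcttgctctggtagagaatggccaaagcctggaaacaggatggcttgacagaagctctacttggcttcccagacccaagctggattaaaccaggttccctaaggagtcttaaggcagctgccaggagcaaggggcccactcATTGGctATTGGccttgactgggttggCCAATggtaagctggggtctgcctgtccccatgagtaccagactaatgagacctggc
Plin1, chr7:79732727-79733026, minus strand: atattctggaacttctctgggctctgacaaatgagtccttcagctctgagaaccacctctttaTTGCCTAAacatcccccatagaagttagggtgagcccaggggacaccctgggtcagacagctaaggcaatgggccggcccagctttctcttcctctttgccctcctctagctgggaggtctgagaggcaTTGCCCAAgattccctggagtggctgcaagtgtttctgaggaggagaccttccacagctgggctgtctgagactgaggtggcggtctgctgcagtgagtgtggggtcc
Lep, chr6:29059971-29060270, plus strand: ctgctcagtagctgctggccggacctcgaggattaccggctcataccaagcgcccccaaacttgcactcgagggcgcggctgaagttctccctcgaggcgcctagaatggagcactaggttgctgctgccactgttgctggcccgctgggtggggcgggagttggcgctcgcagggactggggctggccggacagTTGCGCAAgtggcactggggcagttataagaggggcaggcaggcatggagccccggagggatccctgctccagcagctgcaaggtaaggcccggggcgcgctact
The Ucp1 window held AGGTCA starting at position -14 and TGACG at position -147 relative to the start of transcription. The Adipoq window held CCAAT 3 times, at -34 and -27 on the minus strand and at -7 on the plus strand. The Plin1 window held TTGCNNAA at -187 and -58, and the Lep window held it at -55, where the match reads on both strands. Of 32851 mouse promoter windows of the same length, 16.3% held AGGTCA, 20.8% TGACG, 37.4% CCAAT, 10.8% TTGCNNAA and 13.6% TATAAA. Among the 7 genes with a window, AGGTCA was present in 2 (Ucp1 and Pparg), TGACG in 1 (Ucp1), CCAAT in 3 (Adipoq, Cyp2e1 and Pparg), TTGCNNAA in 3 (Lep, Plin1 and Pparg) and TATAAA in 2 (Cyp2e1 and Pparg). Pparg has 3 windows and its matches are pooled over them, so these counts cannot be set against the shares, which are per window. These matches describe letters only and no binding was measured.

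Levels are given as CPM, the expected count scaled to the total of the library or of all libraries of a mouse together. Library totals ran from 5.01 to 19.7 M counts (mega-counts) in the p53+/+ normal thymuses, stood at 17.8 M in the p53+/- normal thymus, and ran from 10.01 to 24.4, from 1.03 to 19.5 and from 3.81 to 26.9 M in lymphomas of untreated p53-/- mice, of p53-/- mice given doxycycline and of p53+/- mice. A count of 0 allows up to 3 counts, which is between 0.112 and 2.91 CPM in single lymphoma libraries, for counting error only. Among normal libraries, that of mouse 387 stood apart: its 10 thymocyte markers (such as Rag1 and Lck) summed to 1085 CPM against a median of 8621 in the 8 p53+/+ mice, its 12 thymic epithelial markers (such as Prss16 and Tbata) to 203 against 2735, and its 6 B cell markers (such as Cd79a and Cd79b) to 1115 against 112. Main values of the normal thymuses are also given without it. Among the lymphomas, 2 untreated p53-/- tumours stood apart, with skeletal muscle markers at 2957 CPM in mouse 562 and B cell markers at 2846 CPM in mouse 881, where the thymocyte list was at its lowest (219 CPM).

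Fat transcripts were abundant in the normal thymuses of p53+/+ mice and varied widely from mouse to mouse. The 10 genes together took 0.150% to 1.39% of all counts (median 0.360%, SD 0.408, n = 8), and 0.150% to 0.729% (median 0.354%, SD 0.195, n = 7) without mouse 387. The lowest share, in mouse 978, had a 95% Wilson interval of 0.148% to 0.151%, so counting error was far smaller than the spread between mice. Ucp1 ran from 165 CPM (mouse 787) to 729 CPM (mouse 961) with a median of 477. It was above 300 CPM in 6 of the 8 mice. Cidea ran from 58.4 to 342 CPM with a median of 144. Thermogenic and droplet genes of brown fat were thus present in all 8 normal thymuses.

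Among the secreted products, Adipoq lay between 57.3 CPM in mouse 978 and 1135 CPM in mouse 387, with a median of 153, and at most 432 CPM in the other 7 mice. Cfd lay between 198 and 2847 CPM with a median of 480. Lep was the most variable of the 10, from 0.112 CPM in mouse 978 to 86.0 CPM in mouse 387, with a median of 20.4. The leptin values of the 8 mice spanned a 766-fold range, which rests on the few counts in mouse 978 and is 42.7-fold without it, against 4.43-fold for Ucp1 and 5.85-fold for Cidea over all 8. For genes of lipid handling, Fabp4 ran from 477 to 5040 CPM (median 1191), Lpl from 300.5 to 1956 CPM (median 546) and Plin1 from 34.7 to 711 CPM (median 126). Pparg ran from 16.3 to 111 CPM (median 31.9) and Cyp2e1 from 106 to 1104 CPM (median 240). Without mouse 387 the maxima were 2204 CPM for Fabp4, 1238 for Lpl, 266 for Plin1, 1339 for Cfd and 45.9 for Lep, and the median of Lep was 12.98 CPM. Mouse 387 had the highest level of 8 of the 10 genes, the exceptions being Ucp1 and Cidea, which were highest in mice 961 and 818.

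Per kilobase of annotated exon, the order of the median levels in normal thymus was Cfd (520 CPM per kb), Ucp1 (292), Fabp4 (265), Cidea (129), Cyp2e1 (111), Adipoq (111), Lpl (52.1), Plin1 (27.03), Pparg (10.8) and Lep (6.07). Neighbours in this order differed by less than the spread over the 8 mice, which was at least 4.43-fold for each gene. The ranges of distant pairs, such as Ucp1 and Pparg, did not overlap.

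**Figure D1:**
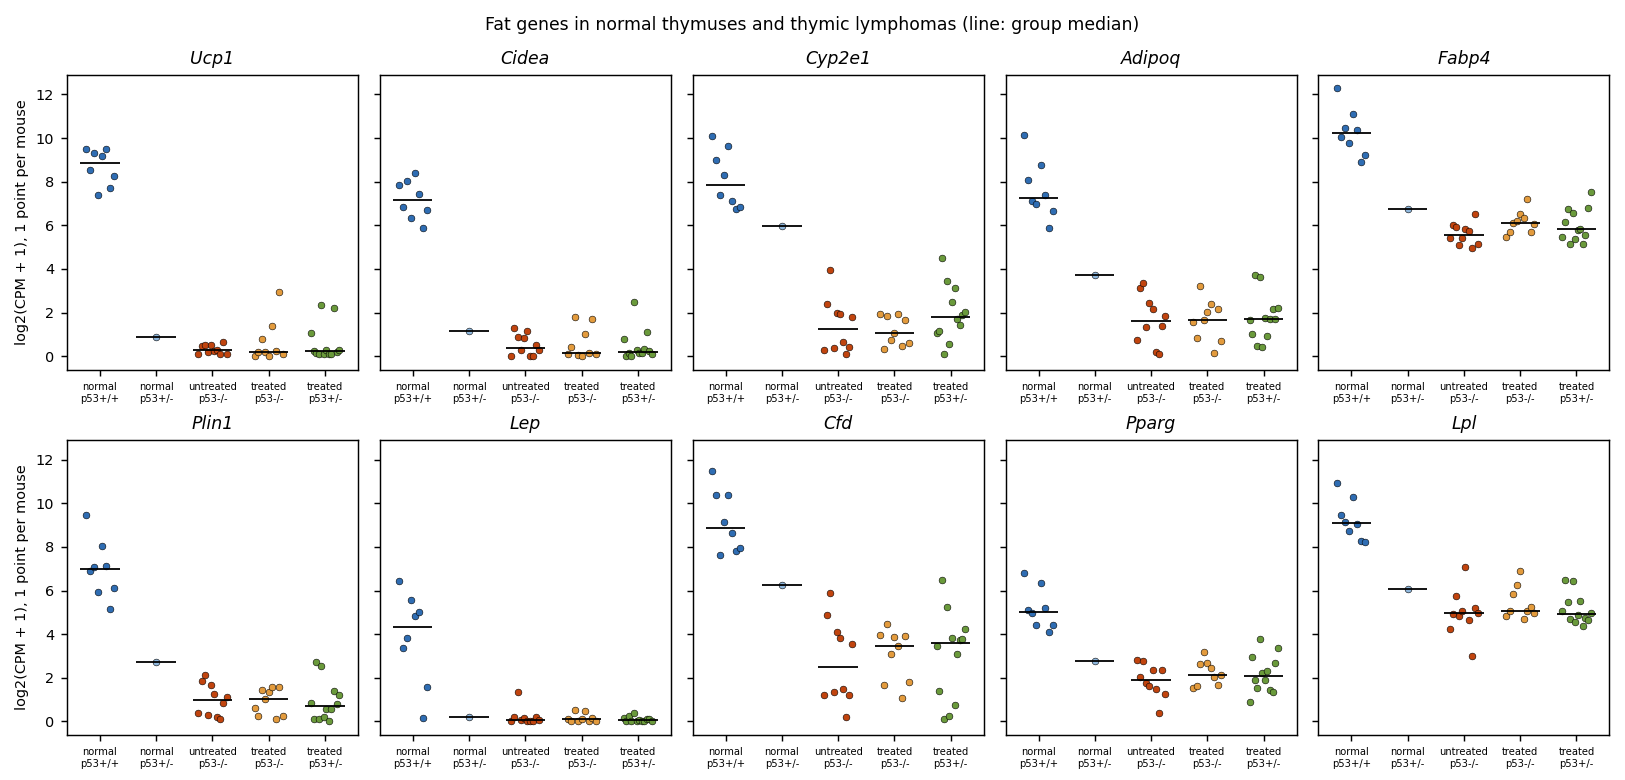
Level of each of the 10 fat genes in each mouse, as log2(CPM + 1), in p53+/+ normal thymus (8 mice), p53+/- normal thymus (1), and lymphomas of p53-/- mice without (10) and with doxycycline (9) and of p53+/- mice with doxycycline (12), with the group median as a line. Every lymphoma lay below every p53+/+ normal thymus for 9 of the 10 genes, and the p53+/- normal thymus lay below the p53+/+ range for the same 9.

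The balance of brown against general fat genes was read from the log2 ratio of Ucp1 to Adipoq counts within a library, which does not depend on how much fat a library holds. It ran from -0.66 to 2.21 in the p53+/+ normal thymuses, with a median of 1.03. Ucp1 exceeded Adipoq in CPM in 7 of 8 mice, and mouse 387, the one with the most fat transcripts, was the exception. Without it the ratio ran from 0.39 to 2.21 with a median of 1.60. The largest ratios were in mice 624 (2.21), 961 (2.12), 978 (1.89) and 980 (1.60), whose Adipoq levels were 138, 168, 57.3 and 101 CPM. Mice 615, 787 and 818 lay lower, at 0.47, 0.39 and 0.43. Cidea was closer to Adipoq, with a log2 ratio from -2.32 (mouse 387) to 0.92 (mouse 624).

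The single p53+/- normal thymus (mouse 819) held far less fat RNA than any p53+/+ one. Its 10 fat genes took 0.0332% of counts (95% Wilson interval 0.0324% to 0.0341%). Ucp1 was at 0.843 CPM, 195-fold below the lowest p53+/+ thymus and 566-fold below their median. Cidea was at 1.24 CPM, 116-fold below the median. The other genes apart from Lep lay less far below: Adipoq at 12.4 CPM was 12.4-fold below the median, Fabp4 at 105 CPM 11.4-fold, Plin1 at 5.56 CPM 22.6-fold, Cfd at 74.4 CPM 6.45-fold, Lpl at 66.2 CPM 8.25-fold, Pparg at 5.73 CPM 5.57-fold and Cyp2e1 at 61.1 CPM 3.93-fold. Lep, at 0.169 CPM, was 121-fold below the median (20.4 CPM, or 12.98 CPM without mouse 387), but rested on few counts and lay within the p53+/+ range. The log2 ratio of Ucp1 to Adipoq was -3.87, outside the range of the 8 p53+/+ mice. Its thymocyte (10550 CPM) and thymic epithelial markers (3199 CPM) lay within their range. With 1 animal there is no replicate and no test, and genotype cannot be told apart from the individual or the dissection.

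The adipocyte genes beyond the 10 went the same way in that animal. Of brown-selective genes with a median of at least 1 CPM in normal thymus, 20 of 21 were below every p53+/+ mouse, where 6.76% of all 15238 genes at that level were, at a median 17.9-fold below the p53+/+ median. For general adipocyte genes the count was 24 of 26, at a median of 5.89-fold, and for white-selective genes 2 of 5, at 2.83-fold. Cox8b, a brown fat subunit of cytochrome oxidase, was at 1.07 CPM against a median of 94.3, and Fabp3, the heart-type fatty acid carrier, at 0.453 against 74.8. Ucp2, an uncoupling protein homologue of immune cells, was at 994 CPM against 938.

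**Figure D2:**
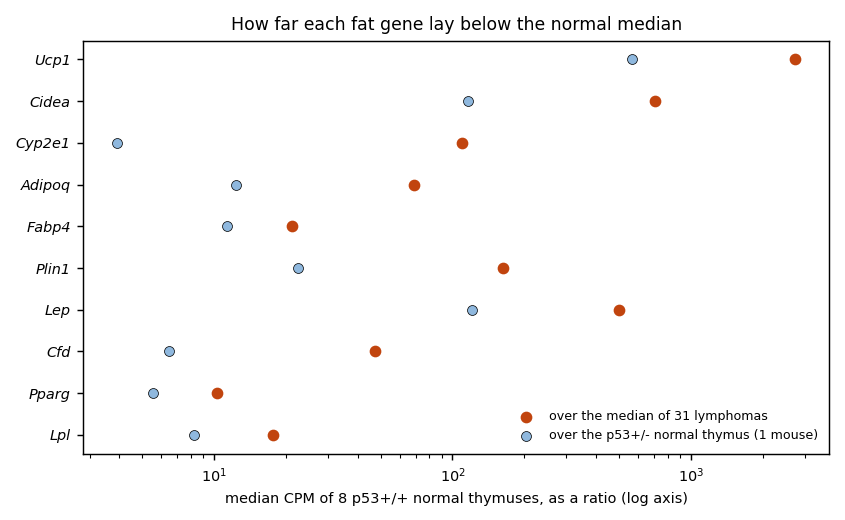
Median CPM of the 8 p53+/+ normal thymuses divided by the median of 31 lymphomas (red) or by the p53+/- normal thymus (blue), for each of the 10 genes on a log axis. Ucp1 had the largest ratio in both (2749 and 566), Pparg the smallest against lymphomas (10.3) and Cyp2e1 the smallest against the p53+/- thymus (3.93).

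In the lymphomas of all 3 groups the fat genes lay near the detection limit or far below their level in normal thymus. The share of counts in the 10 genes had a median of 0.00934% without treatment, and with doxycycline of 0.0130% in p53-/- and 0.0111% in p53+/- mice, and its highest value in any lymphoma, 0.0281% in mouse 266, was below the lowest normal thymus (0.0332% in mouse 819). In bulk RNA, fewer fat cells and less RNA per fat cell cannot be told apart. Of the 17843 genes tested, 3.06% had all 31 lymphomas below all 8 p53+/+ thymuses, and 9 of the 10 fat genes did so, as their choice fixed. Lep was the exception, since mouse 978 had almost none, and 22 of 31 lymphomas lay below it.

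By ratio of medians over all 31 lymphomas, Ucp1 and Cidea lay furthest below, followed by Lep. Ucp1 had a median of 0.174 CPM over the 31 lymphomas, with 26 of 31 under 1 CPM and a maximum of 6.80 CPM (mouse 869), against at least 165 CPM in p53+/+ thymus. The ratio of medians was 2749, but 63 of 72 lymphoma libraries held fewer than 10 Ucp1 counts and 14 held none, so the size of the ratio is uncertain. Cidea had a median of 0.203 CPM (ratio 710) and a maximum of 4.51 CPM in mouse 309, and its ratio is as uncertain, since 57 of 72 libraries held fewer than 10 counts and 27 held none. Lep had a median of 0.0406 CPM (ratio 502), and its ratio is uncertain too, since 71 of 72 libraries held fewer than 10 counts and 44 held none. Without mouse 387 the ratios of medians were 2144 for Ucp1, 567 for Cidea and 319.8 for Lep, and from 9.62 (Pparg) to 152 (Plin1) for the other 7 genes. The largest Lep value in a lymphoma was 1.58 CPM, in mouse 157.

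Genes of mature adipocytes in general came next. Plin1 had a median of 0.773 CPM and a ratio of 163, Cyp2e1 of 2.19 CPM and 110, Adipoq of 2.21 CPM and 69.2, and Cfd of 10.2 CPM and 47.2. Fabp4, Lpl and Pparg differed least. Fabp4 had a median of 55.9 CPM (range 30.1 to 182) and a ratio of 21.3. Lpl had a median of 30.8 CPM (range 7.13 to 137) and a ratio of 17.7, and its highest value came from mouse 562, the lymphoma with skeletal muscle markers. Pparg had a median of 3.11 CPM (range 0.324 to 12.7) and a ratio of 10.3. Fabp4 and Lpl were counted in all 72 lymphoma libraries, at no fewer than 22.3 and 7.13 CPM.

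In edgeR's quasi-likelihood fit of the p53+/+ thymuses and the 3 lymphoma groups, 40.7%, 52.1% and 50.9% of 17843 genes had a Benjamini-Hochberg adjusted p under 0.05 in the untreated p53-/- group, the p53-/- group given doxycycline and the p53+/- group, and 17.5%, 26.7% and 25.3% were lower. In untreated p53-/- lymphomas 4139 genes were higher and 3131 lower, against 3105 and 3551 without scaling factors, which move the median of all genes from 0.08 to -0.05 there and from -0.00 to -0.12 in treated p53+/- lymphomas. For the 10 fat genes the median log2 fold change without scaling factors was -6.63, -7.13 and -6.55 in the 3 groups. All 10 fat genes were lower by this rule in each group, which repeats the contrast they were chosen on and is no evidence. Their median log2 fold change was -6.68, -7.29 and -6.61, against 0.08, -0.04 and -0.00 over all genes tested. Without mouse 387 the medians of the fat genes were -6.07, -6.37 and -5.68. Ucp1 had fitted log2 fold changes of -10.25 (SE 1.02), -8.85 (SE 0.99) and -9.49 (SE 0.90), and Adipoq of -6.43 (SE 0.84), -6.89 (SE 0.87) and -6.58 (SE 0.75). Cidea had -8.32, -7.94 and -8.21, Lep -7.21, -8.09 and -8.65, and Cyp2e1 -7.00, -8.28 and -6.64, so that Cidea was second lowest in the untreated group and in neither group given doxycycline. Pparg had the smallest, at -3.84 (SE 0.51), -3.55 (SE 0.51) and -3.36 (SE 0.45). Thymic epithelial markers, which share the normal gland with the fat, had medians of 125, 116 and 91.6 CPM in the lymphoma groups against 2735 CPM in p53+/+ thymus, and fibroblast and mesothelial markers 64.8, 84.3 and 86.2 CPM against 280. B cell markers had medians of 12.2, 11.6 and 16.5 CPM against 112, with 1, 6 and 6 of 6 genes lower, and endothelial markers 153, 210.1 and 156 CPM against 306, with 6, 5 and 7 of 10 lower and 0, 1 and 0 higher. Macrophage markers had medians of 552, 529 and 614 CPM against 672, with 1, 2 and 1 of 8 lower. Thymocyte markers had medians of 2911, 4558 and 4007 CPM against 8621. Of these 10 genes, 4, 1 and 2 were lower and 0, 1 and 1 higher. Erythroid markers had medians of 294, 167 and 106 CPM against 736, with 0, 1 and 2 of 4 lower. Of 6 muscle markers tested, 5, 0 and 0 were higher and 0, 0 and 1 lower. The part of these cell types in the result was not tested.

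Other adipocyte genes are described in the same contrast. Those that pass the filter on low counts only through normal thymus, where they are high, had to be lower, so their counts support nothing about the fat genes. Of 21 tested brown-selective genes beyond Ucp1 and Cidea, 19, 20 and 20 were lower in the 3 groups, taken in the same order here and below, and 0 were higher. Of the 12 that also pass the filter on the lymphomas alone, 10, 11 and 11 were lower, and without mouse 387 it was 18, 20 and 19 of 21. Adrb3, the adrenergic receptor that drives heat production, had log2 fold changes of -7.87, -8.11 and -7.83, and Cox8b of -6.58, -7.61 and -8.42. Slc36a2, an amino acid carrier of the brown adipocyte surface, had -6.92, -6.72 and -6.37, and Kcnk3, a potassium channel, -6.00, -7.34 and -7.24. Prdm16, a regulator of brown fat identity that blood cells express as well, was not called in any group (1.30, 1.43 and 1.29). Its median was 3.38 CPM in p53+/+ thymus and 2.01, 1.28 and 6.83 CPM in the lymphoma groups. Single lymphomas ran from 0.0735 to 44.4 CPM of it. Cpt1b, which admits fatty acids to mitochondria, had -3.62, -4.02 and -3.81, and Letmd1, a mitochondrial protein, -0.98, -0.96 and -0.81. Zic1, which marks interscapular brown fat, had a median of 0.0273 CPM in the p53+/+ thymuses themselves.

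Of the white-selective genes beyond Lep, 5 could be tested and all 5 were lower in each group (4 of 5 without mouse 387, and 4 of the 4 that pass the filter on the lymphomas alone), with Nnat at -5.36, -6.65 and -6.25 and the hormone resistin (Retn) at -4.97, -6.51 and -5.91. The Sncg values were -4.16, -4.48 and -4.34, and those of Agt, which encodes angiotensinogen, -3.27, -5.00 and -3.80. Hoxc8, Hoxc9 and Hoxc10, which mark subcutaneous white fat, had medians of 0, 0 and 0.0538 CPM in the p53+/+ thymuses. The summed list reached 801 CPM in mouse 387 against a median of 97.4. The single-gene fold changes above include that mouse. The median log2 fold change of the 5 tested genes was -4.16, -5.00 and -4.34, and -2.71, -4.11 and -2.91 without it.

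Of 26 general adipocyte genes beyond those followed here, 24, 24 and 23 were lower and 0 higher. Of the 23 that pass the filter on the lymphomas alone it was 21, 21 and 20, and without mouse 387 it was 23, 24 and 22 of 26. Those among the 3 largest differences in at least 1 group were Thrsp, a lipogenic nuclear protein (-7.43, -7.99 and -7.34), Gpd1, which makes the glycerol backbone of triglyceride (-7.26, -7.07 and -6.90), the droplet protein Cidec (-6.74, -7.20 and -6.55), the carbonic anhydrase Car3 (-6.05, -7.79 and -7.35), Pnpla3 (-5.98, -7.70 and -6.85) and the desaturase Scd1 (-5.78, -7.23 and -7.16). Pck1 of glyceroneogenesis had -6.66, -6.51 and -6.24, Plin4 -4.94, -6.47 and -6.36, Dgat2, which closes triglyceride synthesis, -5.22, -5.59 and -5.41, and the glucose carrier Slc2a4 -4.83, -5.98 and -5.82. Acsl1, which activates fatty acids, had -4.21, -4.79 and -4.55. The lipases Lipe and Pnpla2 had -4.42, -4.70 and -4.57, and -3.36, -3.90 and -3.50. The fatty acid transporter Cd36 had -3.64, -3.39 and -4.03, the transcription factor Cebpa -3.37, -3.79 and -3.61, and Lpin1 -2.75, -2.97 and -2.72. Enzymes of fatty acid synthesis, a pathway that growing cells use as well, differed less: Fasn had -2.62, -2.57 and -3.00, Acaca -1.72, -1.76 and -2.08, and Acly 0.13, -0.19 and -0.23 (not called).

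Paralogs of Ucp1 and Fabp4 with other sites of expression differed from them. Ucp2 had log2 fold changes of -0.27, -0.69 and -0.16, called in treated p53-/- lymphomas only, and Fabp5, the epidermal carrier that immune cells use, had 0.54, 0.46 and 0.81, called in none. Ucp3 and Fabp3, which muscle and brown fat share, had -4.25, -4.81 and -4.80, and -4.16, -7.91 and -7.01. Fabp3 reached 26.5 CPM in mouse 562, the lymphoma with skeletal muscle markers at 2957 CPM. The summed level of the 8 muscle markers had medians of 11.4, 11.9 and 13.1 CPM in the 3 groups.

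The contrasts among the lymphoma groups did not choose the genes and were tested. In edgeR's fit of the 31 lymphomas, 0% of 16389 genes passed for doxycycline against none in p53-/- mice, 0% for p53+/- against p53-/- genotype under doxycycline, and 0% for treated p53+/- set against untreated p53-/- tumours, while 1917, 864 and 1037 genes had an unadjusted p under 0.05. DESeq2 called 76, 12 and 3. Of the 10 fat genes, 8 passed the filter on low counts, which left out Ucp1 and Lep. None of the 8 was called by edgeR or by DESeq2 in any of the 3 contrasts, and 1, 0 and 1 had an unadjusted p under 0.05 in edgeR (1, 1 and 1 in DESeq2).

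Fabp4 was the gene behind both of these. Its level ran from 30.1 to 91.7 CPM with a median of 47.03 in untreated p53-/-, from 43.6 to 146 with a median of 68.5 in treated p53-/-, and from 34.3 to 182 with a median of 55.2 in treated p53+/- lymphomas, so the 3 groups overlapped. Its log2 difference from untreated p53-/- was 0.72 (SE 0.29, p = 0.0197, edgeR adjusted p = 0.355) for the p53-/- tumours under doxycycline and 0.80 (SE 0.30, p = 0.0117, edgeR adjusted p = 0.776) for the p53+/- ones. Cyp2e1 differed by 1.61 (SE 0.87, edgeR adjusted p = 0.957) between treated p53+/- and treated p53-/- lymphomas. Adipoq had log2 differences of -0.24 (SE 0.80), 0.48 (SE 0.77) and 0.24 (SE 0.95) in the 3 contrasts, with edgeR adjusted p-values from 0.944 to 0.991. These standard errors leave room for differences of severalfold, so the groups are not shown to be alike. Males made up 9 of 10 untreated p53-/-, 4 of 9 treated p53-/- and 3 of 12 treated p53+/- mice, and sex was held in the fit as a covariate. When edgeR ran without that covariate, 0, 1 and 0 of the 8 genes had an unadjusted p under 0.05 in the 3 contrasts. With single-biopsy tumours only it was 0, 0 and 0.

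Some lymphomas kept a brown fat signal and others a fat signal without it. Both genes reached 10 counts in 9 of 31 lymphomas, whose log2 ratio of Ucp1 to Adipoq ran from -4.09 to 0.95. This minimum leaves out tumours with Adipoq but few Ucp1 counts, such as mice 899 (7 Ucp1 and 254 Adipoq counts), 266 (2 and 247), 894 (4 and 130) and 905 (8 and 128), so the 9 lean towards high ratios. It also depends on depth: mouse 908 passed with 19 Ucp1 counts among 88.6 M, and mouse 553 did not with 7 among 9.48 M. Only mice 869 (0.95) and 903 (0.07) were above 0, and of these only mouse 869 lay in the range of the p53+/+ thymuses both with and without mouse 387, and mice 24 (-0.96), 663 (-1.40), 309 (-1.46) and 881 (-1.49) came next. Mouse 309 had 4.14 CPM of Ucp1 and 11.4 CPM of Adipoq. The lymphoma of mouse 266 had the highest Adipoq (12.4 CPM), Cfd (89.9 CPM), Cyp2e1 (21.8 CPM) and Plin1 (5.56 CPM) of all, with 0.1002 CPM each of Ucp1 and Cidea. The lymphoma of mouse 157, with 9.08 CPM of Adipoq and the highest Lep of all, had 0.416 CPM of Ucp1. Adipoq in mouse 266 was at the level of the p53+/- normal thymus (12.4 CPM), where Ucp1 was low as well.

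**Figure D3:**
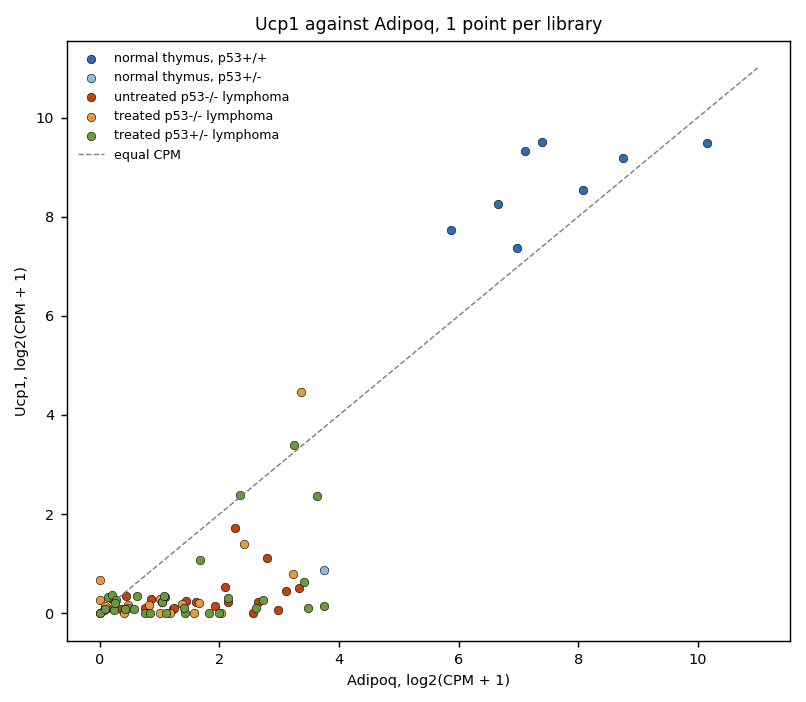
Ucp1 against Adipoq in each of the 81 libraries, both as log2(CPM + 1), with a dashed line where the levels are equal. Of the 8 p53+/+ normal thymuses 7 lay above the line, the p53+/- normal thymus lay far below it, and most lymphoma libraries lay along the bottom.

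For most fat genes, regions of 1 tumour varied more than tumours did. Over the 13 lymphomas with several biopsies, the SD within a tumour of log2(CPM + 1) was 1.05 for Adipoq against 0.41 between tumour means, 1.78 against 0.95 for Cfd, 0.998 against 0.60 for Cyp2e1 and 0.73 against 0.41 for Plin1. Adipoq differed at least 10-fold between biopsies in 8 of the 13 tumours, Cyp2e1 in 9 and Cfd in 8, and 2 further tumours had a biopsy with no Adipoq count. Fabp4 and Pparg were the reverse, with 0.60 within against 0.77 between tumours and 0.48 against 0.61, and neither differed 10-fold within any tumour. Some of the 10-fold differences rest on a biopsy near the detection limit, so their size is uncertain. The lowest Adipoq was 0.0463 CPM in a biopsy of mouse 881, for example, and 0.0633 CPM in mouse 903. The biopsy richest in Adipoq was also the richest in Plin1 in 10 tumours, in Cfd in 9, in Cyp2e1 in 8, in Ucp1, Cidea and Lpl in 7, in Fabp4 in 6 and in Pparg in 5 of 13. What unrelated genes would give was not computed.

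In mice 869 and 903, Ucp1 was high in some regions and near 0 in others. In mouse 869, Ucp1 was 0.129, 0.226 and 0 CPM in biopsies 1, 3 and 5 and 21.1 CPM in biopsy 7, where Cidea (6.52 CPM), Adipoq (9.30 CPM) and Plin1 (5.43 CPM) were also at their highest in that tumour. In mouse 903, Ucp1 was 9.46 CPM in biopsy 1 and 4.25 in biopsy 7, against 0.0545 and 0.0633 in biopsies 3 and 5, and Adipoq was 8.53 and 4.09 CPM against 0.490 and 0.0633. Thymic epithelial markers summed to 43.4 CPM in biopsy 7 of mouse 869, against 43.5, 426 and 42.2 CPM in biopsies 1, 3 and 5. In mouse 903 they summed to 59.3 and 60.4 CPM in biopsies 1 and 7, against 87.5 and 109 CPM in biopsies 3 and 5, and in mouse 908 to 196, 238, 141 and 88.4 CPM in biopsies 3, 5, 7 and 9. Their part in the result was not tested. Mouse 908 differed: biopsy 7 had 9.64 CPM of Adipoq with 0.558 CPM of Ucp1, while biopsy 9 had the highest Fabp4 of any lymphoma library, 426 CPM, and the highest Pparg, 15.4 CPM, with 2.99 CPM of Adipoq. Macrophage markers in mouse 908 summed to 1639 CPM in biopsy 7 and 839 CPM in biopsy 9, and endothelial markers to 196 and 205 CPM. Their part in these levels was not tested.

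**Figure D4:**
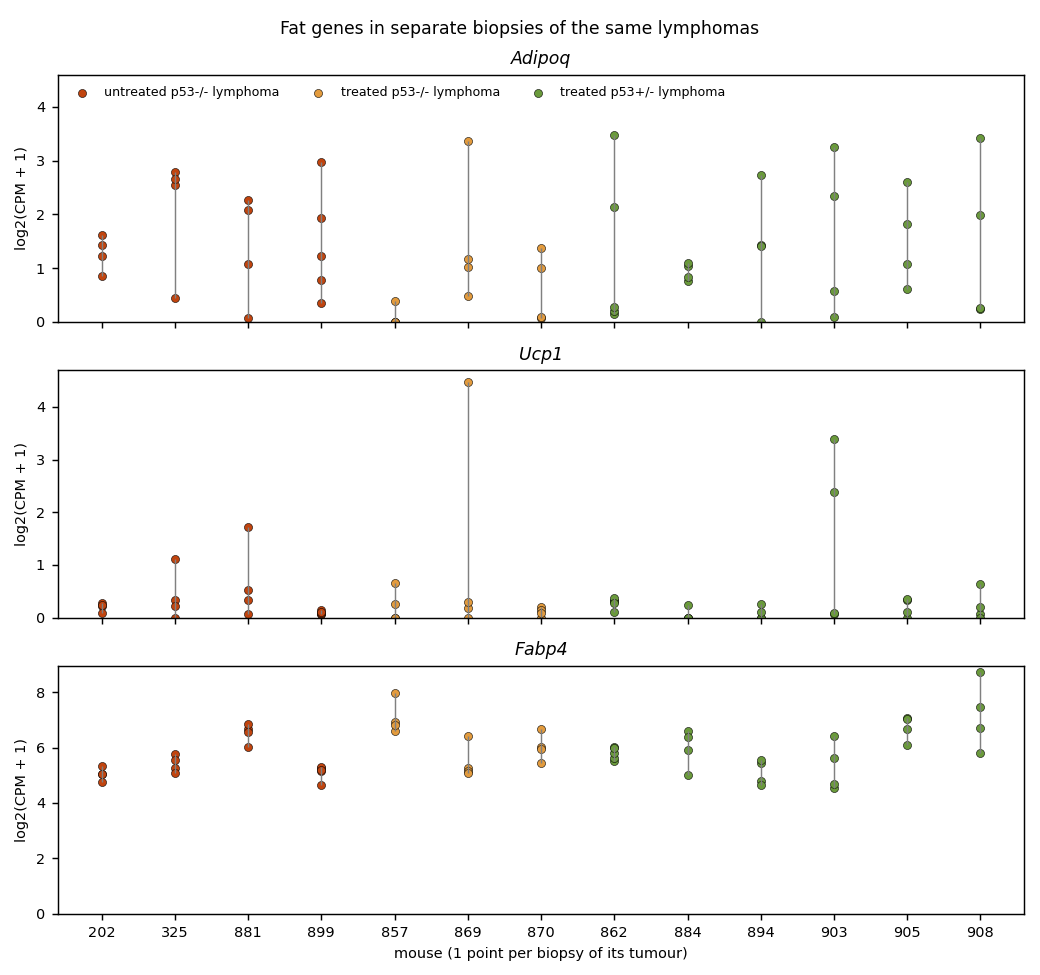
Adipoq, Ucp1 and Fabp4 in each biopsy of the 13 lymphomas sampled in several regions, as log2(CPM + 1), with a line from the lowest to the highest biopsy of each mouse. Ucp1 stood out in 1 biopsy of mouse 869 (21.1 CPM) and 2 of mouse 903 (9.46 and 4.25 CPM), while Fabp4 stayed above 22.3 CPM in every biopsy.

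Across the 8 p53+/+ normal thymuses, general fat genes varied together. With log2(CPM + 1), Pearson's r with Adipoq was 0.97 for Lpl, 0.96 for Pparg and Plin1, 0.95 for Fabp4 and 0.91 for Cyp2e1 and Cfd (n = 8). These 6 passed an exact two-sided permutation test after Benjamini-Hochberg adjustment over 15614 genes (adjusted p from 0.0272 to 0.0359), where 13.9% of all genes did. Ucp1 (r = 0.64, exact permutation p = 0.0877, adjusted 0.175), Cidea (r = 0.69, exact permutation p = 0.0566, adjusted 0.132) and Lep (r = 0.75, exact permutation p = 0.0319, adjusted 0.0943) did not. Spearman's rho was 0.98 for Pparg, 0.95 for Lpl, 0.90 for Fabp4, Plin1 and Cyp2e1, 0.79 for Cfd, 0.76 for Cidea, 0.67 for Ucp1 and 0.64 for Lep, and no gene passed by rho (exact permutation, smallest p for these genes 0.000397 for Pparg, adjusted 0.0784).

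These relations rested partly on mouse 387. Without the 2 mice farthest from the median of Adipoq (387 and 818), r was 0.90 for Lpl, 0.88 for Pparg, 0.83 for Plin1, 0.78 for Fabp4, 0.76 for Cyp2e1 and Cfd, 0.65 for Lep, 0.54 for Cidea and 0.49 for Ucp1. Without mouse 387 alone, 0 of 15527 genes passed in place of 2173, and the same held without mouse 818, 978 or 980. Without mouse 387, r with Adipoq was still 0.95 for Lpl and 0.93 for Pparg. Without mouse 615, 624, 787 or 961, 760, 2860, 1190 and 1118 genes passed. Thymocyte markers were lowest (1085 CPM) in the mouse with the most Adipoq, and of the 2173 genes 431 had a positive and 1742 a negative r. This split depends on the scaling and on the mice included: with TMM-scaled totals 323 were positive and 104 negative, and with the p53+/- thymus added 227 were positive and 151 negative.

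The 10 genes closest to Adipoq in normal thymus were Pcx (r = 0.992), Maob (0.991), A530016L24Rik (0.988), Tmem182 (0.986), Arxes2 (0.985), Acsl1 (0.984), Ebf2 (0.984), Amy1 (0.984), Cidec (0.982) and Mmachc (0.981), each over 8 mice. Those closest to Ucp1 were another set, D10Jhu81e (0.984), Dhrs7b (0.980), Aspa (0.973), Cib2 (0.969), Grhpr (0.968), Acsf3 (0.967), Fabp3 (0.962), Acadvl (0.961), Tuba8 (0.961) and Bckdha (0.958). Ebf2, close to Adipoq, and Fabp3, close to Ucp1, are both on the brown-selective list, and the difference between the sets was not tested. None of the 15614 genes passed the exact permutation test against Ucp1 after adjustment, with 1886 at an unadjusted p under 0.05. Cidea had r = 0.87 with Ucp1 (rho = 0.74, exact permutation p = 0.00799, adjusted 0.317), Plin1 0.80, Fabp4 0.75, Pparg 0.74, Lpl 0.66, Lep 0.48, Cyp2e1 0.34 and Cfd 0.33. Without mouse 387, r with Ucp1 was 0.86 for Cidea, 0.83 for Plin1, 0.76 for Fabp4, 0.71 for Pparg, 0.59 for Lpl, 0.56 for Adipoq, 0.35 for Lep, 0.14 for Cyp2e1 and 0.099 for Cfd.

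In the lymphomas, r of the fat genes with Adipoq ranged from 0.32 to 0.95, and differences between these values were not tested. On log2(CPM + 1) centred on the mean of each group, over 31 mice, Plin1 had r = 0.95 with Adipoq (rho = 0.96), Cfd 0.93 (rho = 0.92) and Cyp2e1 0.82 (rho = 0.80). Each had a two-sided permutation p of 1e-05, the smallest that 100000 resamples within groups can give (adjusted p = 0.0149 over 14892 genes, both for r and for rho), where 0.0873% of all genes passed. Lpl (r = 0.46, rho = 0.46, permutation p = 0.0117, adjusted 0.460), Pparg (r = 0.37, rho = 0.29, permutation p = 0.0530, adjusted 0.540) and Fabp4 (r = 0.32, rho = 0.37, permutation p = 0.0909, adjusted 0.589) did not pass. Without the 2 mice farthest from the median (266 and 309), r was 0.93 for Plin1, 0.92 for Cfd, 0.75 for Cyp2e1, 0.39 for Lpl, 0.31 for Pparg and 0.20 for Fabp4. Within the 3 lymphoma groups in the same order, r was 0.97, 0.91 and 0.97 for Plin1, 0.94, 0.92 and 0.95 for Cfd, and 0.38, -0.28 and 0.57 for Fabp4. Cidea (r = 0.67), Lep (0.64) and Ucp1 (0.42) had a mean level under 1 CPM and were not tested.

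The 10 genes closest to Adipoq in the lymphomas were Cidec (r = 0.95), Plin1, Cfd, Car3 (0.87), Gpd1 (0.82), Plin4 (0.82), Cyp2e1, Pck1 (0.76), Car5b (0.76) and the plasma protein gene Hp (0.75), all at the smallest p the permutations can give. In all 13 genes passed, each with a positive r. Cidec was the only gene among the closest 10 both here and in normal thymus.

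**Figure D5:**
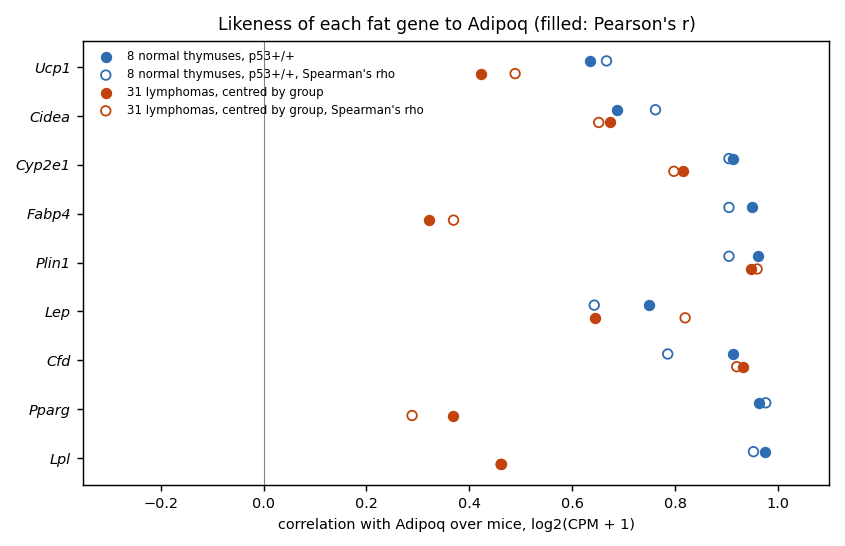
Correlation of each fat gene with Adipoq over 8 p53+/+ normal thymuses (blue) and over 31 lymphomas centred by group (red), with Pearson's r filled and Spearman's rho open. By Pearson's r, Fabp4, Pparg and Lpl lay at 0.95 to 0.97 in normal thymus and at 0.32 to 0.46 in the lymphomas, while r of Plin1, Cfd and Cyp2e1 lay at 0.82 to 0.96 in both.

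Since Fabp4, Pparg and Lpl have other sites of expression, they and Adipoq were set against 2 endothelial markers, Pecam1 and Cdh5, and 2 macrophage markers, Csf1r and Adgre1, over the 31 lymphomas. None of the 16 pairs passed after Benjamini-Hochberg adjustment. Fabp4 and Pecam1 had r = 0.15 (rho = 0.13, permutation p = 0.372 and 0.488, adjusted 0.497), and r was 0.61, -0.18 and -0.09 within the 3 groups, and -0.02 without the 2 mice farthest from the median of Pecam1. Fabp4 and Cdh5 had r = 0.40 (rho = 0.35, permutation p = 0.0227 and 0.0556, adjusted 0.121), with 0.40, 0.35 and 0.49 within groups and 0.23 without the 2 mice farthest from the median of Cdh5. Lpl and Adgre1 had the largest value, r = 0.46 (rho = 0.46, permutation p = 0.00735 and 0.0115, adjusted 0.118; 0.36 without the 2 farthest mice), with 0.33, 0.86 and 0.31 within groups, and Pparg and Csf1r had r = 0.39 (rho = 0.44, permutation p = 0.0301 and 0.0155, adjusted 0.121; 0.33 without the 2 farthest mice), with 0.37, 0.45 and 0.41 within groups. Adipoq itself had r = 0.40 with Adgre1 (rho = 0.40, permutation p = 0.0265 and 0.0306, adjusted 0.121; 0.35 without the 2 farthest mice), with 0.18, 0.31 and 0.63 within groups.

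Male and female p53+/+ thymuses, 4 of each as labelled, were compared within the normal mice. By edgeR 0.0414% of 16926 genes were called (7 genes, against 13 by DESeq2), and none of the 10 fat genes was, by either tool, nor did any have an unadjusted p under 0.05 in either. Adipoq ran from 101 to 1135 CPM in females and from 57.3 to 432 CPM in males, which overlapped, with a log2 difference (male over female) of -1.35 (SE 0.99, edgeR adjusted p = 0.963). Ucp1 ran from 305 to 729 CPM in females and from 165 to 638 CPM in males, with a log2 difference of -0.48 (SE 0.58, edgeR adjusted p = 0.963). The median log2 difference of the 10 genes was -0.72 and turned to 0.44 without mouse 387, a female.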

How the data were processed

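RNA from snap-frozen normal thymus and thymic lymphoma was sequenced in 81 libraries of 40 mice. The authors deposited RSEM expected counts per gene, not normalized, as 1 table. Per the submitters' processing notes the tools were CASAVA 1.8, fastp, STAR 2.7.2b and RSEM 1.1.17, with build mm10, and their settings are not given in the sources used here. Expected counts, of which 14.3% were not whole, were rounded, and biopsies of a mouse were summed. How RSEM shared reads among paralogs could alter values such as those of the Fabp and Ucp genes.

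Groups were compared with edgeR 4.0.16 in R 4.3.3 (TMM factors, filterByExpr, quasi-likelihood test, labelled sex as covariate, Benjamini-Hochberg threshold 0.05), with normal thymus in the fit for comparisons with it and the 31 lymphomas in a fit of their own. Correlations used log2(CPM + 1), a pseudocount of 1, genes with a mean of at least 1 CPM, all 40320 orders of 8 mice or 100000 resamples within lymphoma groups, in Python 3.11.15 with scipy 1.17.1. Alternatives were DESeq2 1.42.0, other scaling, no filter, other sex coding, single-biopsy tumours, other pseudocounts, Spearman's rho and leaving out mice. Values without mouse 387 or 978 for levels, ratios and lists, and the lists under the lymphoma filter, were added after seeing the data. Scripts were tested on simulated data.

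The genes and marker lists were chosen with earlier results of these data known. Beyond the 10 genes, those named are the 3 largest called changes per adipocyte list and contrast, list genes with a median of at least 50 CPM in normal thymus, 10 nearest genes per correlation, the top 2 of other lists, and Ucp and Fabp paralogs. Prdm16, Zic1 and the Hoxc genes were named after their values were seen.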

Additional observations from a re-analysis of the deposited data

Results flagged for a closer look

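Of 35 sets of values (a gene, share or ratio within a group of mice) checked for a sample far from the others, 2 held one, and chance flags about 1 in 20. The genes and the share were not checked in the 12 treated p53+/- lymphomas, a group too large for the check. There Ucp1 reached 4.14 CPM and Cidea 4.51 CPM, against group medians of 0.160 and 0.148 CPM. Ucp1 in the treated p53-/- lymphoma of mouse 869 was 6.80 CPM, against 0 to 1.63 CPM in the other 8 mice of the group (n = 9). Lep in the untreated p53-/- lymphoma of mouse 157 was 1.58 CPM, against 0 to 0.148 CPM in the other 9 (n = 10).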

How the results depend on the processing

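All 10 fat genes were lower than in normal thymus in each lymphoma group under each alternative run, except that with the p53+/- thymus added Lep was not tested and the other 9 were lower. None was called among lymphoma groups or between sexes. Counts of all genes were less stable: DESeq2 called 76, 12 and 3 among lymphoma groups and 13 between sexes, while treated p53+/- against untreated p53-/- lymphomas gave 7 without the filter and 21 without the sex covariate. Leaving out each normal mouse gave 0 to 8 genes between sexes and 0 to 2860 related to Adipoq in normal thymus. That last count was 427 (323 positive, 104 negative) with TMM-scaled totals, 0 by Spearman's rho and 378 (227 positive, 151 negative) with the p53+/- thymus added, and in lymphomas it was 6 with single-biopsy tumours only. Requiring 50 counts of both genes left 3 lymphomas, with a median log2 ratio of Ucp1 to Adipoq of 0.0726 in place of -1.46, and both minimums favour tumours with more Ucp1.

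Some uncalled log2 differences changed sign. Between treated p53+/- and treated p53-/- lymphomas, Cidea became 1.82 with sex from expression and 2.32 with single-biopsy tumours, and Fabp4 -0.015 without the sex covariate. Against untreated p53-/-, Plin1 became 0.21, 0.11 and 0.000625 and Cfd 0.47 and 0.18 (no sex covariate, sex from expression and, for Plin1, single-biopsy tumours), and Lpl 0.0094, 0.0124, 0.0135 and 0.0504 (no scaling, RLE factors, DESeq2, single-biopsy tumours). Between sexes, leaving out 1 mouse moved Cidea between -0.37 and 0.67, Cyp2e1 between -1.56 and 0.58, Adipoq between -2.30 and 0.22, Fabp4 between -1.43 and 0.45, Plin1 between -2.08 and 0.36, Lep between -1.40 and 0.73, Pparg between -1.46 and 0.44 and Lpl between -1.30 and 0.43. The cause was not tested. No paired analysis was possible because the groups share no replicate numbers.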
